A study of Mus musculus with 32 samples.

Results

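The genes of cholesterol and fatty acid synthesis and of the switch that controls them were described in WT and Eed -/- mouse embryonic stem cells (mESCs). The 31 members were chosen by symbol, without use of their measured values, from the 24028 gene symbols of the RNA-seq tables, and every member was listed. They comprise 5 regulators, 16 sterol genes and 10 fatty acid genes.

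mESCs are pluripotent cells of the early embryo kept in culture, and EED is a core subunit of Polycomb repressive complex 2 (PRC2), which methylates histone H3 at lysine 27. The series asks how Polycomb keeps DNA methylation valleys, long regions with little DNA methylation, in that state. Of its 32 samples, 2 are RNA-seq libraries, 1 per genotype, and the other assays were not analysed here. The WT library and the library labelled Eed -/- both came from mESCs with the strain label TT2, grown with serum and leukemia inhibiting factor on gelatin, without any treatment that the labels set apart. Eed -/- samples of other assays carry another strain label, and whether the RNA came from that line or from 1 clone is not given in the sources used here.

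Cells build cholesterol from acetyl-CoA through mevalonate, farnesyl diphosphate, squalene and lanosterol, and they build fatty acids from the same acetyl-CoA through malonyl-CoA. Both routes are controlled by SREBP proteins, membrane-bound transcription factors that SCAP escorts from the endoplasmic reticulum to the Golgi when sterols are scarce and that INSIG proteins hold back when sterols are plentiful. SREBP-2, from Srebf2, acts mainly on sterol genes and SREBP-1, from Srebf1, mainly on fatty acid genes.

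The promoters of 3 members are shown because the largest differences and the missing measurement of the set lie at these genes. Each line gives the 250 bases before the RefSeq start site (GRCm38.p6, plus strand, 5′ to 3′). Capitals mark matches, on either strand, to TCACNCCAC (a form of the sterol regulatory element bound by SREBP), CCAAT (bound by NF-Y), GGGCGG (bound by Sp1) or CACGTG (an E-box). Hmgcs1 lies at chr13:119690101-119690350, Lss at chr10:76531355-76531604 and Elovl6 at chr3:129532136-129532385.
Hmgcs1: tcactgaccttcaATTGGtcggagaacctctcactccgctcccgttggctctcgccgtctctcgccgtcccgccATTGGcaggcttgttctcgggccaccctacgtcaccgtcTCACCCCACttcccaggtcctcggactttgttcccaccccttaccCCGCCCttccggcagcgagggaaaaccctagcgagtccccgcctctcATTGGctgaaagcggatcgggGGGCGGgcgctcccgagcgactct
Lss: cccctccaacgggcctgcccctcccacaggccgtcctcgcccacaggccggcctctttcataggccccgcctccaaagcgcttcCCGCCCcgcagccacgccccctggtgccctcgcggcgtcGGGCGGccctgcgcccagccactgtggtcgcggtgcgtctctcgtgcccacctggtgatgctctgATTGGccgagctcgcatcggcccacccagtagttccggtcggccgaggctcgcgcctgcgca
Elovl6: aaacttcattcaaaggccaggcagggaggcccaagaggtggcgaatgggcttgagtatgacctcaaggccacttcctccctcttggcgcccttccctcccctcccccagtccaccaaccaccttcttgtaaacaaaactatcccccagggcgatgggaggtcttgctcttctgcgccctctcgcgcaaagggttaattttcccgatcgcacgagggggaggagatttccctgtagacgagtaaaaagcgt

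The sterol regulatory element letters stood in the Hmgcs1 window and in no other member's window, against 1.05% of 32851 RefSeq windows of this length. CCAAT stood in 11 of 12 sterol genes with a window, 3 of 7 fatty acid genes and 4 of 5 regulators, against 33.8% of all windows. GGGCGG stood in 11 of these sterol genes, 2 fatty acid genes and 5 regulators, against 32.7%. CACGTG stood in 3 sterol genes, 1 fatty acid gene and 2 regulators, against 6.02%. The Elovl6 window held none of the 4. A match is a description of letters and not of a bound site. A gene with several start sites counts once when any of its windows holds the letters. No window was given for Fdps, Fdft1, Sqle, Stard4, Scd1, Scd2 and Fads1.

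RNA levels are given as FPKM, sequenced fragments divided by transcript length and library size, after quantile normalization of the libraries. A change is the library labelled Eed -/- minus WT in log2(FPKM + 1), a scale that understates changes of low genes. A ratio is the normalized FPKM of the library labelled Eed -/- over that of WT. Its bracketed 95% interval is the exact binomial interval on fragment numbers recovered from the FPKM steps and covers counting error only, not the spread between cultures. With 1 library per genotype there is no replicate check and no test, and every difference is one between these libraries.

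The recovered depth was about 7220000 fragments in WT against 6450000 in the library labelled Eed -/-. The members rested on 21 to 6225 fragments in WT and 12 to 4615 in the other library. Eed itself, in FPKM as deposited, was at 63 in WT against 70.9 in the library labelled Eed -/-. Its normalized ratio was 1.32 [1.2 to 1.45], so its RNA was not lower there. RNA level does not show whether EED protein was present, and the genotype of this library was not tested here. For its Eed -/- mESCs, the paper reports that loss of Eed was checked by western blot and ChIP-seq of the histone mark of its complex. All 10 pluripotency markers were expressed in each library, with Pou5f1 at 393 and 373 deposited FPKM. Their median change was 0.24, and 1 gene, Zfp42, was at least 2-fold higher at a change of 1.30, where 3.8% of all genes used were. Of 10 primitive endoderm markers, 9 were used, 8 above 0 and 1 below, with a median change of 0.73. Their summed FPKM was 47.6 in WT and 88.4 in the other library. Lama1, Col4a1 and Col4a2 were at least 2-fold higher, with changes of 2.06, 1.76 and 1.22, against the same 3.8%. Lamb1, the marker below 0, was at 29.6 in WT and 24.8 in the other library, a change of -0.06. Of the listed transcription factors of that cell type, Gata4 was at 0.431 and 1.35 FPKM, Gata6 at 0.184 and 0.514 and Sox7 at 0.314 and 1.15. Sox17 was listed at 0 and at 0.449, and Foxa2, which was not used, at 0.0731 and 0. Gata4 rested on 10 and 28 fragments, Gata6 on 4 and 10 and Sox7 on 7 and 23. Sox17 rested on 0 and 9 and Foxa2 on 1 and 0. The ratio intervals of Gata4 [1.51 to 7.38] and Sox7 [1.56 to 10.3] lay above 1. That of Gata6 [0.806 to 12.2] held 1. Of 8 fibroblast markers 5 were used, 3 above 0 and 2 below, with sums of 3.1 and 10.8, of which Thy1 made up 0.976 and 6.97. Of 8 trophoblast markers 7 were used, 3 above 0 and 4 below, with sums of 49 and 16.1, of which Tfap2c made up 39.8 and 9.21, while Eomes was at 0.478 and 1.93 and Elf5 was listed at 0 in each. The part of these markers in the results on lipid genes was not tested. Whole chromosomes also differed, with a median change of -0.29 on chromosome 1, -0.39 on chromosome 8 and 0.46 on chromosome X, against 0.01 over all 14835 genes used.

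Most of the lipid synthesis genes were expressed at similar levels in the libraries. Of the 31 members, 30 passed the mean FPKM of 0.1, and the exception was Hmgcs1. Of these 30, 28 were at 2 FPKM or more in each library, all but Idi1 and Tm7sf2. On the log2(FPKM + 1) scale no member was at least 2-fold higher, where 3.8% of all genes used were, and none was at least 2-fold lower, where 3.98% were. The pseudocount of 1 decided this for Elovl6, whose ratio without it was 2.02 and whose change was 1.01, past the line, with a pseudocount of 0.1 or 0.01. At 1.5-fold, Elovl6 was higher (background 12.3%) and Mvd and Lss were lower (background 12.4%). The counting interval of the ratio lay above 1 for 6 members (background 24.6%) and below 1 for 10 (background 23.3%). Under each of 3 scalings of the libraries it lay above 1 for 2 members, Srebf1 and Elovl6 (background 17.8%), and below 1 for 8 (background 22.2%), which were Insig2, Mvd, Fdps, Lss, Acat2, Acly, Fads1 and Fads2. The scalings were quantile normalization, median-ratio scaling and the FPKM as deposited. Counting intervals narrow with more fragments, and the background shares of them, here and below, were not matched for level. The median level in WT was 18.8 normalized FPKM for the members used and 4.31 for all genes used.

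**Figure D1:**
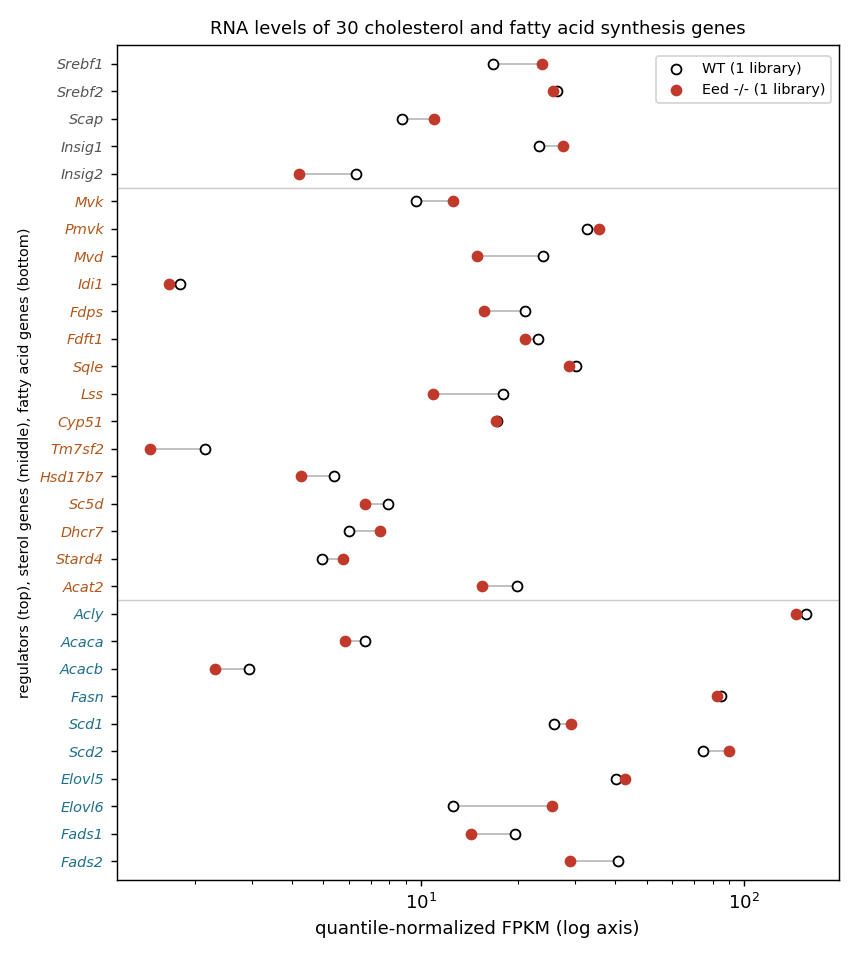
Quantile-normalized FPKM (log axis) of the 30 members used, in WT (open points) and in the library labelled Eed -/- (filled points), 1 library each. Paired points lie close together for most genes, and the widest gap is that of Elovl6, at 12.6 and 25.5.

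Across the 30 members, levels in the libraries had a Pearson r of 0.969 on the log2 scale, a description across genes, which are not independent replicates. Levels ran from 1.8 to 155 normalized FPKM in WT, and over such a range r can be high even where single genes differ. Changes lay within 0.3 of 0 for 18 members, with 11 above 0 and 19 below. The median change was -0.07, beside 0.01 over all genes used, of which 7558 lay above 0 and 7263 below. With the FPKM as deposited, the median was -0.26 for the members and -0.14 for all genes whose mean FPKM reached 2. The sign was the same under all 3 scalings for 27 members and turned with the FPKM as deposited for Pmvk, Scd1 and Elovl5.

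**Figure D2:**
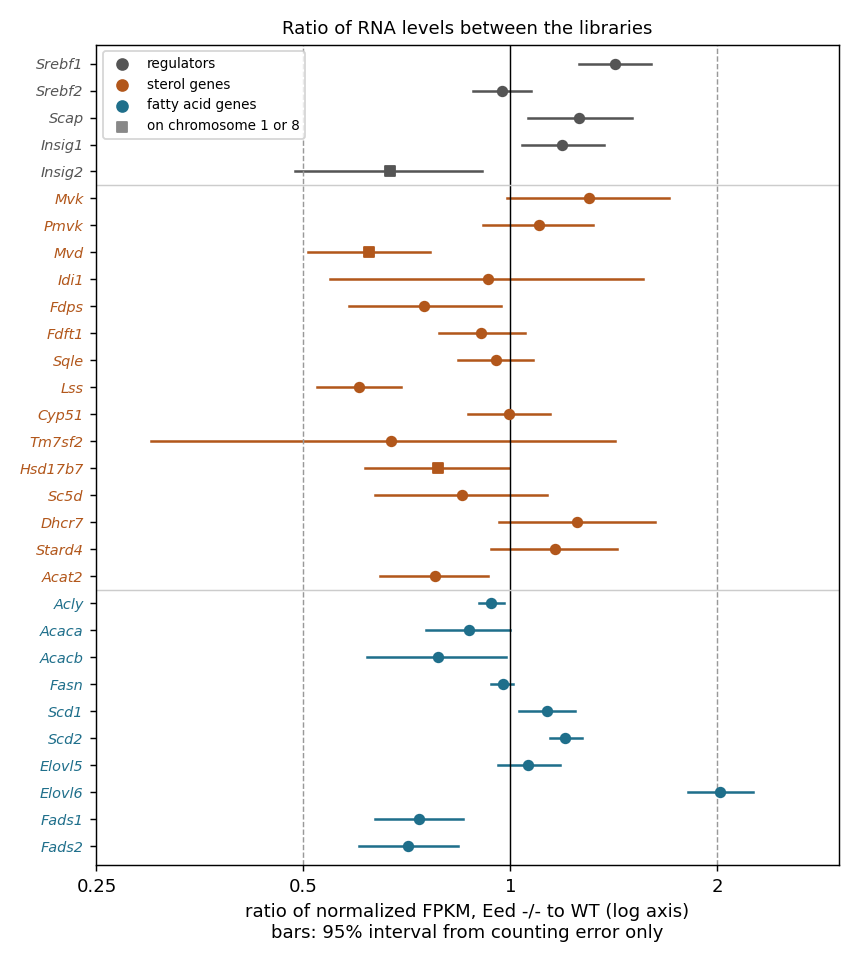
Ratio of normalized FPKM, library labelled Eed -/- to WT (log axis), for the 30 members used, with 95% intervals from counting error as bars, colour for the regulators, sterol genes and fatty acid genes, and squares for genes on chromosomes 1 and 8. The ratios run from 0.602 for Lss to 2.02 for Elovl6, and dashed lines mark 0.5 and 2.

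Among the regulators, the SREBP genes differed from each other in how they stood between the libraries. Srebf1 (chromosome 11 of mm9, 60012591 to 60036083) was at 16.7 normalized FPKM in WT against 23.7 in the library labelled Eed -/-, a ratio of 1.42 [1.26 to 1.6]. Srebf2 (chromosome 15, 81977696 to 82035806) was at 26.3 and 25.6, a ratio of 0.972 [0.882 to 1.07]. The deposited FPKM of Srebf1 was thus 0.629 of that of Srebf2 in WT and 0.924 in the other library. The ratio of these ratios, which does not depend on a common scale factor of a library, was 1.47 [1.26 to 1.71]. With the median length of all annotated transcripts in place of the longest coding one, the interval of the Srebf1 ratio widened to [1.03 to 1.94]. The interval of this ratio of ratios was not recomputed with that length. Exons of Srebf1 overlap those of Rai1 on the opposite strand, and use of strand by the authors' counting is not given in the sources used here.

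Scap, the escort of the SREBP proteins, was at 8.74 normalized FPKM in WT against 11 in the library labelled Eed -/-, a ratio of 1.26 [1.06 to 1.5]. Insig1, which holds SCAP in the endoplasmic reticulum and is itself an SREBP target, was at 23.2 and 27.5, a ratio of 1.19 [1.04 to 1.37]. Insig2, the relative with the same task, was at 6.29 and 4.19, a ratio of 0.667 [0.486 to 0.91]. The INSIG genes thus lay on opposite sides of 1, but the change of Insig1, 0.24 with quantile normalization, was 0.05 with the FPKM as deposited. Insig2 lies on chromosome 1 (123200930 to 123229166), whose median change was -0.29, and the part of that shift in its value was not tested. Insig1 stood at 3.7 times the deposited FPKM of Insig2 in WT and 6.39 times in the other library, a ratio of ratios of 1.73 [1.24 to 2.4]. With the median length of all annotated transcripts in place of the longest coding one, which gives fewer fragments, the intervals of Scap [0.611 to 2.54] and Insig2 [0.258 to 1.81] held 1. The interval of the ratio of ratios used the longest coding transcripts and was not recomputed with the median length.

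The sterol genes lay slightly to the lower side in the library labelled Eed -/-. Of the 15 used, 4 were above 0 and 11 below, with a median change of -0.14 beside 0.01 over all genes used and a range of -0.68 to 0.35. With the FPKM as deposited, 12 were below 0 and the median was -0.32, on a scale where the median was -0.09 for all genes used and -0.14 for those whose mean FPKM reached 2. The counting interval lay below 1 for 5 of them and above 1 for none, beside 23.3% and 24.6% of all genes. These shares were not matched for level, with a median of 17.2 normalized FPKM in WT for the sterol genes and 4.31 for all genes used. Without Mvd and Hsd17b7, which lie on chromosomes 8 and 1, the median was -0.07.

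In the early steps, up to farnesyl diphosphate, the median change of 6 genes used was -0.21. Acat2, which joins acetyl-CoA units into acetoacetyl-CoA, was at 19.9 normalized FPKM in WT against 15.5 in the library labelled Eed -/-, a ratio of 0.777 [0.645 to 0.929]. Mvk, mevalonate kinase, was at 9.7 and 12.6, a ratio of 1.3 [0.989 to 1.7]. Pmvk, the next kinase, was at 32.6 and 35.7, a ratio of 1.1 [0.913 to 1.32], and its change of 0.13 turned to -0.07 with the FPKM as deposited. Both kinases had intervals that held 1, so a difference was not detectable at this depth. Mvd, the decarboxylase that makes isopentenyl diphosphate (chromosome 8, 124957496 to 124967322), was at 23.9 and 14.9, a ratio of 0.622 [0.507 to 0.763]. Its change of -0.65 stood beside a median of -0.39 for chromosome 8, and the part of that shift in it was not tested. Idi1, the isomerase of isopentenyl diphosphate, was at 1.8 and 1.67, a ratio of 0.929 [0.546 to 1.56]. Fdps, farnesyl diphosphate synthase, was at 21 and 15.7, a ratio of 0.749 [0.583 to 0.968]. Idi1 and Fdps each have 2 near-identical copies elsewhere in mm9, with 99.3% and 98.8% identity for the closest, so reads can be split between them and the copies and their levels are uncertain.

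From squalene on, 8 genes were used, 1 above 0 and 7 below, with a median change of -0.17. Fdft1, squalene synthase, was at 23.1 normalized FPKM in WT against 21 in the library labelled Eed -/-, a ratio of 0.906 [0.787 to 1.05]. Sqle, the squalene epoxidase that limits the rate of the later steps, was at 30.1 and 28.7, a ratio of 0.952 [0.84 to 1.08]. Lss, lanosterol synthase (chromosome 10, 75994333 to 76019883), which closes the sterol rings, was at 18 and 10.9, a ratio of 0.602 [0.523 to 0.693]. That was the lowest ratio of the 30 members, and the change was -0.68 with quantile normalization, -0.68 with median-ratio scaling and -0.83 as deposited. An exon of Lss overlaps 4930483K19Rik on the opposite strand. Cyp51, which demethylates lanosterol in the next step, was at 17.2 and 17.1, a ratio of 0.994 [0.868 to 1.14]. The enzymes directly before and after Lss in the route thus had intervals that held 1.

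The remaining sterol enzymes were low to moderate. Tm7sf2, a sterol reductase, was at 2.16 and 1.45 normalized FPKM, a ratio of 0.67 [0.3 to 1.42] from 21 and 12 fragments, too few to show a difference of this size. Hsd17b7, a ketosteroid reductase on chromosome 1, was at 5.41 and 4.25, a ratio of 0.785 [0.615 to 0.994], and with the median transcript length its interval [0.459 to 1.34] held 1. Sc5d, a sterol desaturase, was at 7.92 and 6.73, a ratio of 0.85 [0.636 to 1.13]. Dhcr7, a reductase of the last step, was at 5.98 and 7.49, a ratio of 1.25 [0.963 to 1.62]. Stard4, which carries cholesterol between membranes, was at 4.96 and 5.75, a ratio of 1.16 [0.936 to 1.43]. Of these 5 genes, 1 interval excluded 1.

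Hmgcs1, which makes HMG-CoA at the head of the mevalonate route, was listed in 2 rows, each at 0 in both libraries, so no level or fold can be given. The promoter window printed above matches mm9 exactly at 2 places, both on unplaced contigs, whereas every other member's window matches once. In these tables, 227 of 268 symbols that had several rows (84.7%) stood at 0 in both libraries, against 29.4% of symbols with 1 row. Gapdh, a gene that every cell uses and that has 42 near-identical copies in mm9, had a deposited FPKM of 1.13 in WT against 0.374 in the other library. These values cannot tell a failed estimate from an unexpressed gene, so the 0 of Hmgcs1 was not read as its expression. What set the value to 0 was not tested.

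The fatty acid genes included the most abundant members and the largest single difference. Of the 10, 4 were above 0 and 6 below, with a median change of -0.06 and a range of -0.48 to 0.96. The counting interval lay above 1 for 3 and below 1 for 4, beside 24.6% and 23.3% of all genes. The sterol median was lower than the fatty acid median by 0.07 on the log2 scale. This gap, sterol minus fatty acid, was -0.02 with median-ratio scaling and -0.03 with the FPKM as deposited. Without the members on chromosomes 1 and 8 it was -0.00. The order-statistic intervals of the medians over genes were -0.37 to 0.13 and -0.42 to 0.26, and the interval of the gap was -0.63 to 0.54. Genes are not replicates, so these intervals describe the spread across genes and cannot say whether the groups differ.

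Acly, Fasn and the acetyl-CoA carboxylase genes Acaca and Acacb had ratios from 0.785 to 0.975. Acly, which cleaves citrate to acetyl-CoA, was the most abundant member at 155 normalized FPKM in WT against 145 in the library labelled Eed -/-, a ratio of 0.938 [0.899 to 0.979]. Fasn, fatty acid synthase, was at 84.8 and 82.6, a ratio of 0.975 [0.938 to 1.01]. Acaca, the acetyl-CoA carboxylase that makes malonyl-CoA for synthesis, was at 6.73 and 5.85, a ratio of 0.869 with an interval from 0.753 to 1. Its relative Acacb, at the mitochondrial membrane, was at 2.95 and 2.31, a ratio of 0.785 [0.619 to 0.985]. The median change of these 4 was -0.13. With the median transcript length, the intervals of Acly [0.874 to 1.01] and Acacb [0.6 to 1.03] held 1. Acaca has 1 copy on chromosome 12 of mm9 at 99.1% identity, so its level is uncertain.

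The desaturases of saturated fatty acids, Scd1 and Scd2, are neighbours on chromosome 19. Scd1 was at 25.9 and 29.2 normalized FPKM, a ratio of 1.13 [1.03 to 1.24], and its change of 0.17 became -0.02 as deposited. Scd2 was at 74.5 and 89.6, a ratio of 1.2 [1.14 to 1.27], and its change of 0.26 became 0.03 as deposited. Scd2 was the main desaturase gene in each library, with 2.91 times the deposited FPKM of Scd1 in WT and 3.01 times in the other. The ratio of these ratios was 1.03 [0.93 to 1.15].

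The elongases differed more. Elovl6 (chromosome 3, 129235304 to 129341413), which lengthens palmitate, was at 12.6 normalized FPKM in WT against 25.5 in the library labelled Eed -/-, a ratio of 2.02 [1.81 to 2.25]. Its change was 0.96 with quantile normalization and 0.95 with median-ratio scaling, just under the 2-fold line. With a pseudocount of 0.1 in place of 1 it was 1.01. As deposited it was 0.80, further below the line and moved by more than its counting error. Elovl5, which lengthens polyunsaturated fatty acids, was at 40.3 and 42.9, a ratio of 1.06 [0.959 to 1.18]. The deposited FPKM of Elovl6 was 0.309 of that of Elovl5 in WT and 0.598 in the other library, a ratio of ratios of 1.93 [1.67 to 2.24].

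The desaturases of polyunsaturated fatty acids were lower together. Fads1 (chromosome 19, 10257378 to 10271360) was at 19.5 normalized FPKM in WT against 14.3 in the library labelled Eed -/-, a ratio of 0.736 [0.635 to 0.854]. Fads2 (chromosome 19, 10138654 to 10175993) was at 40.6 and 28.9, a ratio of 0.71 [0.603 to 0.838]. The genes are neighbours, and their own ratio was 2.09 in WT and 1.98 in the other library, a ratio of ratios of 0.948 [0.763 to 1.18]. Pairs of related genes were chosen for these ratios after their values were seen.

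**Figure D3:**
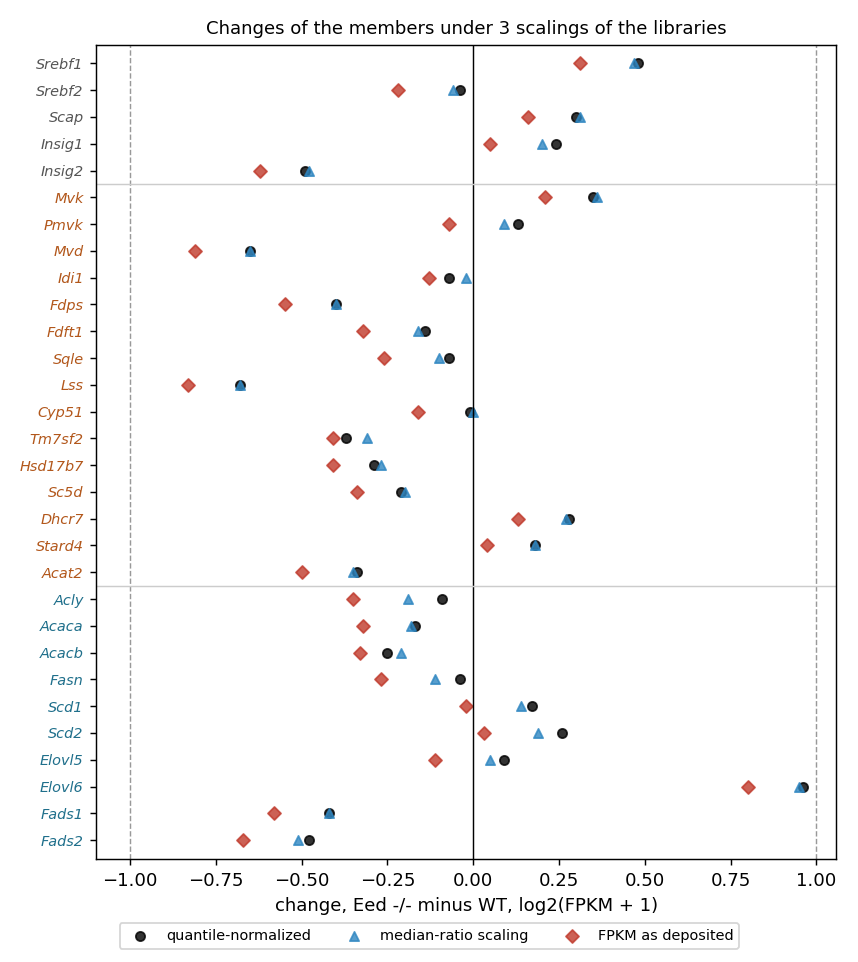
Change, library labelled Eed -/- minus WT in log2(FPKM + 1), of the 30 members used under quantile normalization (circles), median-ratio scaling (triangles) and the FPKM as deposited (diamonds), with dashed lines at 2-fold. The deposited values lie to the left of the others, Elovl6 at 0.80 to 0.96 and Lss at -0.83 to -0.68 keep their sides, and Pmvk, Scd1 and Elovl5 cross 0.

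Other lipid genes gave medians near 0 too, with single genes further out, and 2-fold calls here are likewise on the log2(FPKM + 1) scale. For every list below, the share over all genes used was 3.8% at least 2-fold higher and 3.98% at least 2-fold lower. Of 7 other sterol enzymes used, 1 was at least 2-fold higher and none lower (median -0.08), with Msmo1 at the line. Ebp, the sterol isomerase, changed most, by 1.67, and lies on chromosome X. Msmo1, a methyl oxidase that acts after Cyp51, had a ratio of 0.487 [0.414 to 0.573] on chromosome 8, and Lbr, a sterol reductase and lamin receptor, changed by -0.62 on chromosome 1. All 3 genes lie on chromosomes whose medians differed in the same direction, and the part of those shifts was not tested.

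Of 10 genes of SREBP processing, 1 was 2-fold higher (median 0.12), Pgrmc1 at 1.30 on chromosome X, followed by Tmem97 at 0.60. Of 16 sterol transport genes, 1 was 2-fold lower (median 0.06), Soat1, which esterifies cholesterol, at -1.04 on chromosome 1. Lipa and Npc2, which release and export cholesterol in lysosomes, were at 0.93 and 0.92. Of 14 isoprenoid genes, 1 was 2-fold higher (median -0.01), the farnesyltransferase subunit Fntb at 1.13.

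Of 23 other fatty acid genes used, 1 was 2-fold higher and 2 lower. These were Me1, the malic enzyme that supplies NADPH, at 1.16, the elongation enzyme Tecr at -1.16 on chromosome 8, and Elovl4, an elongase of very long chains, at -1.11. None of 13 glycerolipid genes passed 2-fold (median 0.02), with Dgat2, which makes triacylglycerol, at 0.70. Of 20 fatty acid oxidation genes, 2 were 2-fold higher and 2 lower (median 0.07), with Acaa2, the thiolase of mitochondria, at 1.81 and Cpt1c and Echs1 both at -1.12.

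**Figure D4:**
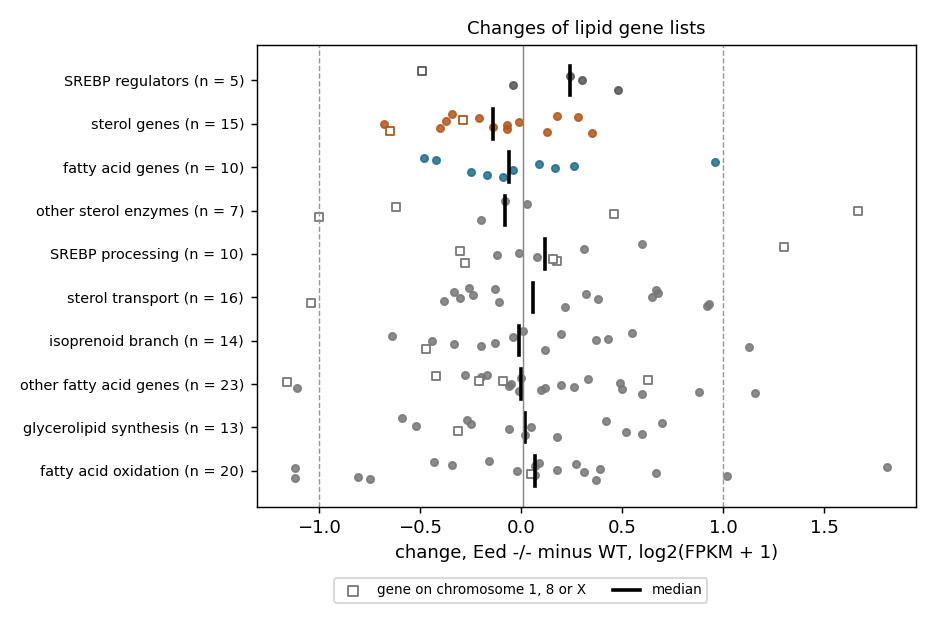
Change, library labelled Eed -/- minus WT in log2(FPKM + 1), of each gene used in 10 lipid gene lists, with medians as black bars, open squares for genes on chromosomes 1, 8 and X, and dashed lines at 2-fold. The medians lie between -0.14 for the sterol genes and 0.24 for the 5 regulators, and no member crosses a dashed line.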

How the data were processed

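RNA-seq tables of WT and Eed -/- mESCs were used, 1 library each, grouped by the genotype label. Per the paper's methods and the submitters' processing notes, the authors prepared strand-specific libraries from ribosomal RNA-depleted RNA, used TopHat to place the reads on mm9 and Cufflinks (2.2.1 in the notes) for quantification. The authors deposited 1 FPKM value per row and gene symbol. The annotation is not given in the sources used here.

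Values of repeated symbols were summed and the libraries were quantile-normalized. Genes were used from a mean FPKM of 0.1 upward, with a pseudocount of 1 and a 2-fold threshold. No test was made. Depth was recovered from low values of genes with 1 transcript of at least 1000 bases, with 180 bases taken off. Of these, 79.5% (WT) and 80.8% were within 0.1 of a whole number, against 20.5% and 19% with lengths shuffled. Fragment numbers used the longest coding transcript of GENCODE vM1 for mm9 (NCBIM37) and are approximate for genes with several transcripts. Intervals are exact Clopper-Pearson intervals at 95%. Copies were found with minimap2 2.31 at 80% coverage and 95% identity. The computations were tested on simulated data. Scripts ran in Python 3.11.15 with scipy 1.17.1, pandas 2.3.3, numpy 2.4.6 and, for plots, matplotlib 3.10.9.

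All members were named, with at most 3 genes of each other list, those with the largest absolute change. Cell type markers were named outside this rule, after their values were seen. The members and lists were chosen with earlier results of these data known. Alternatives were other scalings, pseudocounts, filters, thresholds and member sets, and a median transcript length, which was chosen after seeing the data.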

Additional observations from a re-analysis of the deposited data

How the results depend on the processing

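The median changes of the sterol and the fatty acid genes stayed below 0 under every alternative run. They ran from -0.32 to -0.07 for the sterol genes and from -0.29 to -0.06 for the fatty acid genes, and the gap between them from -0.08 to 0.00. Both lowest medians came with the FPKM as deposited, where the median over all genes used was -0.09. The main intervals of both medians over genes held 0. Leaving out repeated symbols or requiring a mean FPKM of 1 removed no member used and left both medians as they were. No member was at least 2-fold higher or lower with other scalings, other filters, repeated symbols left out, genes of chromosomes 1 and 8 left out, or a 3-fold threshold. With a pseudocount of 0.1 or of 0.01, 1 member, Elovl6, was at least 2-fold higher. With a 1.5-fold threshold, 1 was higher and 2 were lower. Of the 30 changes, 8 moved by more than their counting error with the FPKM as deposited and 2 with median-ratio scaling. With the median transcript length, chosen after seeing the data, 5 intervals lay above 1 and 6 below, against 6 and 10. Ratios of genes with few fragments, such as Tm7sf2 and Idi1, are limited by depth, and the spread between cultures cannot be had from 1 library per genotype.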
